A study of Mus musculus with 9 samples.

Results

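The Hnrnp and Srsf genes encode the heterogeneous nuclear ribonucleoproteins and the serine/arginine-rich (SR) splicing factors of the mouse. They were taken from the gene table by name, as every gene called Hnrnp followed by any letters or called Srsf followed by a number, and were selected on level, with a TPM of 1 or more in 3 or more of the 9 libraries. TPM, the RNA-seq unit of the table, is a level scaled by transcript length and by library total. Hnrnph1 was chosen by its measured difference between nanocapsule and anti-PD1 libraries. Of 32 genes with such names, 30 were kept, 20 Hnrnp and 10 Srsf, among 13248 genes that passed the same level in the whole table. Srsf12 was left out by its level, between 0.0226 and 0.372 TPM, and the pseudogene Hnrnpa1l2-ps by its name. The member nearest the limit was Hnrnph3, at 12.6 to 18.4 TPM. All 30 members were above 10 TPM in all 9 libraries, so none had passed the level through 1 group only.

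The RNA came from lungs of female BALB/c mice, 4 to 6 weeks old, that carried tumours of 4T1, a mouse mammary carcinoma cell line, injected into the right flank. All groups bore the tumour. One group received phosphate-buffered saline (PBS), another the antibody anti-PD1, which blocks the PD-1 receptor of T cells, and a further group nanocapsules of anti-PD1, with treatments on days 7 and 14 and lungs collected on day 21. The labels state 150 µg per mouse in a wording that leaves unclear whether the free antibody had the same dose, and no group with empty capsules was among the samples. Each group held 3 libraries of polyA-selected RNA, numbered 1 to 3. The labels do not tie a number to an animal, so the p-values below measure only the spread between these libraries.

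Proteins of both families bind pre-mRNA and help decide which exons are kept. SR proteins generally bind exonic enhancer sequences and recruit the spliceosome, the RNA and protein machine that removes introns, whereas many hnRNP proteins bind silencer sequences and oppose exon use. Most cells, including those of the lung and the immune cells within it, make both at high levels. Many SR and hnRNP proteins limit their own levels by splicing their transcripts to forms that are destroyed by nonsense-mediated decay, a pathway that degrades mRNA with an early stop codon. The table gives 1 value per gene, so shifts between spliced forms of a member are not visible in it.

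The promoters of Hnrnph1, which was compared with the rest of its family, and Srsf7, the Srsf gene with the lowest mean level, are shown because they share an 8-base motif. Each is the stretch upstream of the RefSeq start site that lies in no annotated exon, 5′ to 3′ on the gene's strand, in GRCm38.p6. Hnrnph1 is shown for chr11:50377441-50377677 on the plus strand, and Srsf7 for chr17:80207308-80207459 on the minus strand. Capitals mark CGCATGCG, a sequence that is its own reverse complement, so that both strands are covered by 1 search.
Hnrnph1: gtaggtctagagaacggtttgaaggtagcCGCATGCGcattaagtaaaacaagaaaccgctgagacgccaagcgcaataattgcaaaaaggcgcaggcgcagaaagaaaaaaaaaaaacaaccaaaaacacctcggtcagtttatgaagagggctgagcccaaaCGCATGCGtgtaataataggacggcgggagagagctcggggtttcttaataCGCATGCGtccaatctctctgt
Srsf7: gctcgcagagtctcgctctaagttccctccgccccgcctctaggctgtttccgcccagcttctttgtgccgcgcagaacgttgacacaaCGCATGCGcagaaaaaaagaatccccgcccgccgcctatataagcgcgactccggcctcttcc
The motif occurred 3 times upstream of Hnrnph1 and once upstream of Srsf7. It was searched for after the Hnrnph1 promoter had been read. Among all 32851 RefSeq promoter windows, 1.55% held it at least once in the 250 bases before the start site, and 2 windows held it 3 or more times. Among tested protein-coding genes the share was 3.67% (334 of 9111). Of 28 members with a RefSeq window, 3 held the motif: Hnrnph1, Srsf7 and Srsf11. The Srsf11 window is not shown because 228 of its bases lie in annotated exons. The median log2 difference between nanocapsule and anti-PD1 libraries was -0.15 over 335 genes with the motif and -0.17 over 8779 genes without it. The medians with and without the motif lay close together.

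Hnrnph1 encodes a protein that binds runs of G in pre-mRNA and regulates the exons beside them. The gene (ENSMUSG00000007850) lies at chr11:50376990-50386528 on the plus strand of GRCm38, has 18 GENCODE transcripts, 3 of them protein coding, and overlaps no other annotated gene. It was singled out from a fit across all genes, where it was 1 of 14 genes called between nanocapsule and anti-PD1 libraries, and its levels are therefore given as a description with no test. That call was lost under 4 alternative settings and in 7 of 9 fits that left out 1 library. In the PBS libraries Hnrnph1 was at 128, 135 and 133 TPM. In the anti-PD1 libraries it was at 156, 144 and 165 TPM. In the nanocapsule libraries it was at 103, 103 and 107 TPM. All anti-PD1 libraries were thus above all PBS libraries, and all PBS libraries above all nanocapsule libraries. The means were 132 ± 3.76, 155 ± 10.5 and 105 ± 2.19 TPM (SD, n = 3 each) for PBS, anti-PD1 and nanocapsule. On the scale of log2(TPM + 1), the difference was 0.23 (SE 0.08) for anti-PD1 minus PBS, -0.33 (SE 0.08) for nanocapsule minus PBS and -0.56 (SE 0.08) for nanocapsule minus anti-PD1. No other member had the 3 groups in this order with no overlap, a pattern held by 0.393% of all tested genes (52 of 13248). In bulk lung RNA, fewer cells that express a gene and less RNA of it per cell cannot be told apart, here or in any result below.

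Hnrnph1 was also set against its family within each library, a measure that does not depend on library scaling. It uses the same values by which Hnrnph1 was chosen and is a description only. The log2 level of Hnrnph1 minus the median of the other 19 Hnrnp genes was 0.18, 0.29 and 0.21 in PBS, 0.44, 0.60 and 0.56 in anti-PD1, and 0.02, 0.15 and -0.05 in nanocapsule libraries. The 3 groups did not overlap. The group means were 0.23 ± 0.06, 0.53 ± 0.08 and 0.04 ± 0.11 (SD, n = 3). Among the 20 Hnrnp genes Hnrnph1 ranked between 8th and 11th in every library, so its place in the family's order of levels moved little. Hnrnpul1, an RNA-binding relative of the nuclear scaffold protein hnRNP U, was the only other family gene whose centred level did not overlap between anti-PD1 and PBS. It was lower by 0.20 in anti-PD1, the opposite direction to Hnrnph1. No gene besides Hnrnph1 (-0.19) had centred levels that did not overlap between nanocapsule and PBS. The centred mean of Hnrnpa1 was lower by more (-0.21), though its libraries overlapped. Between nanocapsule and anti-PD1 the separation was shared: 7 Hnrnp genes were lower with no overlap, Hnrnph1 (-0.49), Hnrnpa1 (-0.38), Hnrnpa3 (-0.36), Hnrnpab, Hnrnpr, Hnrnpa2b1 and Hnrnpl, and Hnrnpul1 was higher (0.35). Centred levels were not computed for all genes, so these counts have no all-gene share. Without centring, 24.6% of all tested genes were lower with no overlap in this contrast. For nanocapsule minus PBS 11.9% were lower, and for anti-PD1 minus PBS 12.1% were higher and 13.4% lower. The TPM ratio of Hnrnph1 to Hnrnpf overlapped between PBS (0.278 to 0.350) and nanocapsule libraries (0.267 to 0.313).

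**Figure D1:**
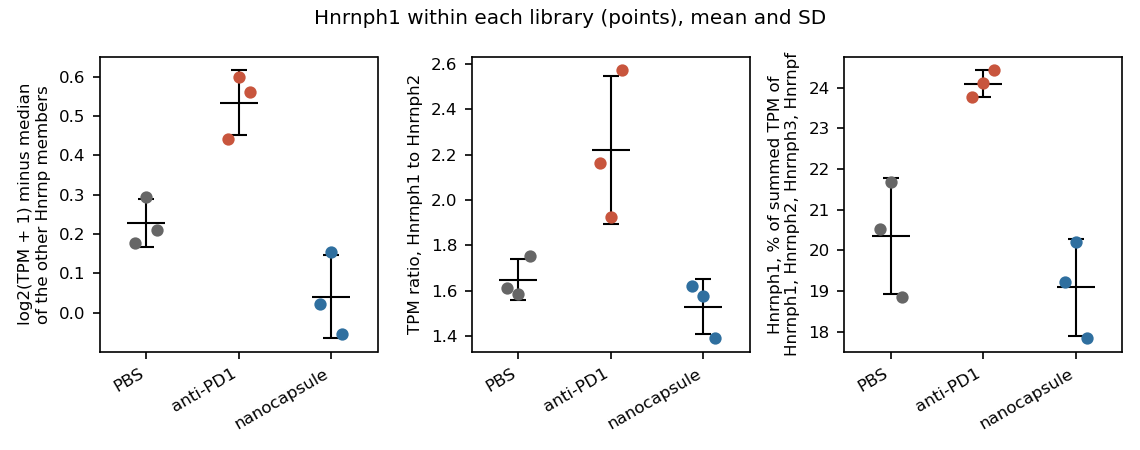
Hnrnph1 within each library: its log2(TPM + 1) minus the median of the other Hnrnp genes, its TPM ratio to Hnrnph2, and its percent of the summed TPM of the 4 H/F genes, with points for libraries and bars for mean and SD (n = 3). The anti-PD1 points lie above those of both other groups in each panel, and PBS and nanocapsule points overlap in the ratio to Hnrnph2 and in the percent.

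Hnrnph2, Hnrnph3 and Hnrnpf are the close relatives of Hnrnph1 that bind the same G runs. Hnrnph2 (chrX:134601179-134607060, plus strand) was at 79.1, 85.0 and 76.1 TPM in PBS, 72.0, 74.8 and 64.2 TPM in anti-PD1, and 63.8, 65.6 and 77.0 TPM in nanocapsule libraries. Every anti-PD1 library was below every PBS library, whereas Hnrnph1 was higher in anti-PD1 than in PBS. The log2 difference of Hnrnph2 was -0.19 (SE 0.10) for anti-PD1 minus PBS, with an adjusted p of 0.380 in limma, and -0.22 for nanocapsule minus PBS, with an adjusted p of 0.491. The TPM ratio of Hnrnph1 to Hnrnph2 was 1.58 to 1.75 in PBS, 1.93 to 2.57 in anti-PD1 and 1.39 to 1.62 in nanocapsule libraries. The coding sequences of these paralogs are alike, and reads that fit both could have been split between them, so this ratio is uncertain to that extent.

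Hnrnph3 (chr10:63014664-63024217, minus strand) had the lowest mean of all members, 16.0 TPM. It was at 15.5, 16.6 and 17.7 TPM in PBS, 17.5, 17.4 and 18.4 TPM in anti-PD1, and 13.1, 12.6 and 15.6 TPM in nanocapsule libraries. The nanocapsule libraries lay below all anti-PD1 libraries and overlapped with PBS by 1 library. The log2 difference was 0.09 (SE 0.11, adjusted p = 0.711 in limma) for anti-PD1 minus PBS, -0.26 (adjusted p = 0.474) for nanocapsule minus PBS and -0.35 (adjusted p = 0.102) for nanocapsule minus anti-PD1. Hnrnpf (chr6:117900324-117925622, plus strand) had the highest mean, 395 TPM. It was at 399, 385 and 480 TPM in PBS, 410, 361 and 428 TPM in anti-PD1, and 358, 330 and 401 TPM in nanocapsule libraries, and all 3 groups overlapped. Its log2 differences were -0.07, -0.21 and -0.14 in the same order of comparisons, with adjusted p of 0.795, 0.554 and 0.433 in limma. Hnrnph1 made up 18.8% to 21.7% of the summed TPM of the 4 genes in PBS, 23.8% to 24.4% in anti-PD1 and 17.8% to 20.2% in nanocapsule libraries.

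**Figure D2:**
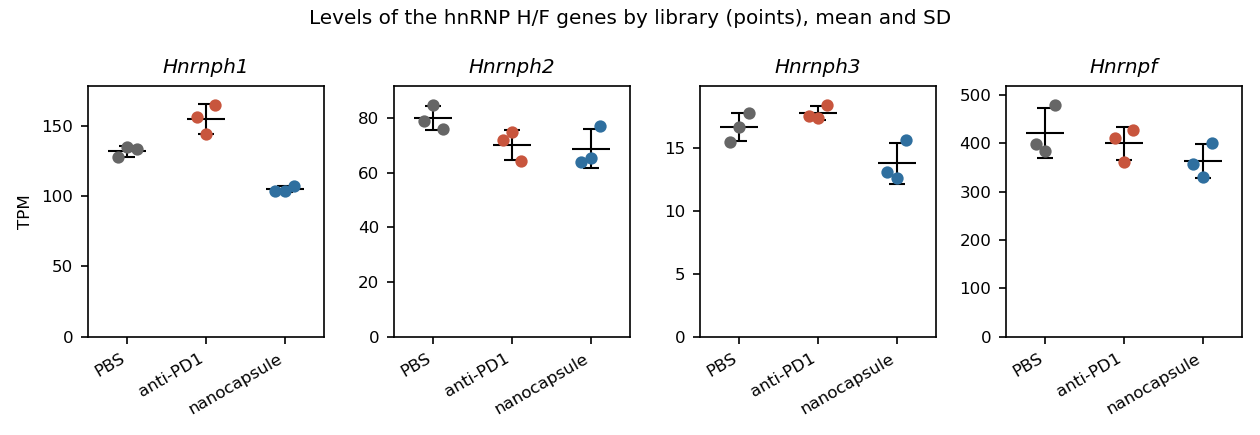
TPM of Hnrnph1, Hnrnph2, Hnrnph3 and Hnrnpf in each library (points), with the group mean and SD (bars, n = 3), each panel on its own linear axis from 0. Only Hnrnph1 has 3 groups that do not overlap, with nanocapsule lowest and anti-PD1 highest.

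TPM is scaled by transcript length, so levels can be ordered between genes. After Hnrnpf came Srsf5, at a mean of 387 TPM (323 to 436), and Hnrnpk, at 337 TPM (301 to 390). The lowest after Hnrnph3 were Srsf7, at 23.6 TPM (17.4 to 29.8), and Hnrnpr, at 24.7 TPM (19.5 to 31.7). Most neighbours in this order could not be separated: of 29 neighbouring pairs, 8 kept their order in all 9 libraries and 2 had ranges that did not touch, Hnrnpk above Hnrnpa2b1 and Srsf4 above Hnrnpll. Between its lowest and highest library a member varied by 1.19-fold (Hnrnpll) to 1.82-fold (Srsf1), with a median of 1.43-fold. The SD within groups on the log2 scale ran from 0.06 for Hnrnpu to 0.24 for Srsf1, with a median of 0.13. Hnrnph1 was also at 0.06.

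The hnRNP A/B genes include Hnrnpa1, the classic splicing repressor that binds exonic silencers, and its relatives. Hnrnpa2b1 ranged over the libraries from 196 to 285 TPM, Hnrnpab from 149 to 235, Hnrnpa3 from 134 to 238, Hnrnpa0 from 145 to 211 and Hnrnpa1 from 92.9 to 166 TPM. Hnrnpd, which binds AU-rich elements and promotes mRNA decay, ranged from 87.8 to 114 TPM and its relative Hnrnpdl from 56.2 to 81.1 TPM. These genes were thus at moderate to high levels in every group. Hnrnpl, which binds CA repeats, ranged from 147 to 189 TPM, and Hnrnpll, known for switching Ptprc (CD45) exons in activated lymphocytes, from 27.7 to 33.0 TPM. Hnrnpk, which binds C-rich RNA, has been given above. Hnrnpm ranged from 103 to 134 TPM, and Hnrnpc, which binds U tracts on nascent transcripts, from 61.3 to 78.4 TPM. Hnrnpu, the chromatin-bound scaffold attachment factor, ranged from 25.7 to 35.1 TPM, with Hnrnpul1 at 94.7 to 120 and Hnrnpul2 at 42.3 to 58.4 TPM.

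Among the SR proteins, Srsf2 is a component of nuclear speckles and ranged from 132 to 188 TPM. Srsf1, the founding member known as ASF/SF2, ranged from 54.8 to 99.7 TPM, and Srsf9, its close relative, from 83.5 to 108 TPM. Srsf3 and Srsf7, which couple splicing to mRNA export, ranged from 74.3 to 110 and from 17.4 to 29.8 TPM. Srsf6 ranged from 52.2 to 84.2, Srsf11 from 49.0 to 79.9, Srsf4 from 38.3 to 50.5 and Srsf10, which represses splicing when it is dephosphorylated, from 25.2 to 35.6 TPM. In the GENCODE M21 annotation of GRCm38, 9 of the 10 Srsf genes and 10 of the 20 Hnrnp genes had at least 1 transcript marked for nonsense-mediated decay. Over both families that was 63.3%, beside 28.7% of 11928 tested protein-coding genes. The members also had more annotated transcripts, a median of 7.5 beside 5, with 8 for the Hnrnp and 7.5 for the Srsf genes. Whether the number of transcripts has a part in the higher share was not tested.

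**Figure D3:**
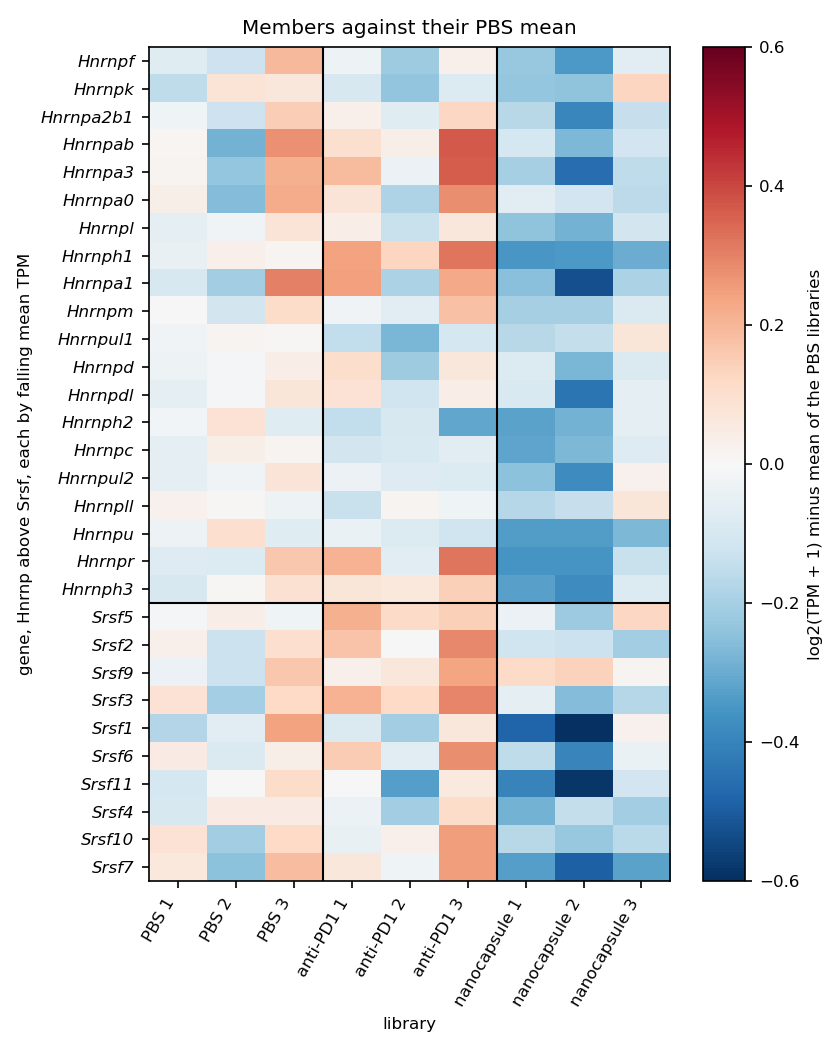
Each member's log2(TPM + 1) in each of the 9 libraries minus its mean over the PBS libraries, with red for higher and blue for lower. Most cells of the nanocapsule columns are blue, deepest in nanocapsule 2, and most cells of PBS 3 and of anti-PD1 3 are red.

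Anti-PD1 was compared with PBS to see whether the free antibody went with a different level of these genes. No member was called at an adjusted p under 0.05, beside 0.00755% of all tested genes (1 of 13248). At an unadjusted p under 0.05 the count was 1, Hnrnph1, which was higher, beside 8.48% of all tested genes in that direction. Hnrnph1 was chosen by a contrast that used these anti-PD1 libraries, so its count is not read as support. Among the other 29 members the count was 0. Of the 30, 17 members were higher and 13 lower in anti-PD1, with a median log2 difference of 0.03 beside 0.04 over all tested genes, of which 43.1% were lower. Under median-of-ratios scaling the median turned to -0.03 with 16 lower, and after quantile normalization it was 0.07 with 19 higher. It also depended on single libraries: without PBS 2 it was -0.02 with 10 higher and without anti-PD1 3 -0.03 with 12 higher, whereas without PBS 3 it was 0.09 and without anti-PD1 2 0.08, each with 21 higher. The Srsf genes had a median of 0.10 (7 of 10 higher, 0.05 under median-of-ratios scaling) and the Hnrnp genes -0.01 (10 of 20 higher, -0.06 under that scaling and 0.06 after quantile normalization).

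Of the members, 3 were higher with no overlap between anti-PD1 and PBS libraries (Hnrnph1, Srsf3 and Srsf5), beside 12.1% of all tested genes, and 3 were lower (Hnrnph2, Hnrnpul1 and Hnrnpc), beside 13.4%. Srsf3 was at 94.8, 77.3 and 97.0 TPM in PBS and 103, 97.1 and 110 TPM in anti-PD1 libraries. The lowest anti-PD1 library was only just above the highest PBS library. Its log2 difference was 0.21 (SE 0.11, adjusted p = 0.354 in limma). Srsf5 was at 373, 386 and 369 TPM in PBS and 436, 408 and 415 TPM in anti-PD1 libraries, a log2 difference of 0.16 (SE 0.10, adjusted p = 0.429). Srsf5 belongs to the SR genes whose introns are often held back in the nucleus. Hnrnpul1 was at 113, 116 and 115 TPM in PBS and 103, 94.7 and 106 TPM in anti-PD1 libraries, a log2 difference of -0.17 (SE 0.09, adjusted p = 0.354). The lower level of Hnrnpul1 in anti-PD1 was small and clear of the spread of the 3 PBS libraries, though it did not pass the test over all genes. Hnrnpk, at -0.14 (SE 0.12, adjusted p = 0.583), and Hnrnpa3, at 0.17 (SE 0.14, adjusted p = 0.565), overlapped between the groups, as did Srsf2 at 0.15 (SE 0.10, adjusted p = 0.453).

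The nanocapsule libraries were compared with PBS to see whether the encapsulated antibody went with a different level. Almost every member had a lower mean in nanocapsule lungs, 29 of 30, with Srsf9 (0.09) as the exception. All tested genes leaned the same way, 71.2% of them being lower. The members' median log2 difference was -0.20 beside -0.11 over all tested genes, and -0.09 beside -0.00 under median-of-ratios scaling, where 24 of 30 were lower. No member was called, beside 0.00755% of all tested genes, and the smallest adjusted p was 0.339 in limma. At an unadjusted p under 0.05, 7 members were lower, beside 8.92% of all tested genes in that direction, and 10 were lower with no overlap between the groups, beside 11.9%. Both counts include Hnrnph1, chosen by a contrast that used these nanocapsule libraries, and it is not read as support. With Hnrnph1 left aside they were 6 and 9. The 7 became 3 under median-of-ratios scaling, beside 5.59% of all tested genes. With 1 library left out the all-gene share moved too. The count was 2 without PBS 3 (beside 4.78%) or nanocapsule 2 (4.29%), 3 without nanocapsule 1 (6.28%) and 14 without nanocapsule 3 (14.7%). Without the library of each group that was highest in Rag1 and Dntt, 26 members were lower. The median was then -0.08 beside -0.03 over all genes. Of these members, 2 had an unadjusted p under 0.05, beside 2.37% of all tested genes in that direction.

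The members with the smallest p after Hnrnph1 came from different branches of the families. Hnrnpu (chr1:178321108-178337797, minus strand) was at 32.0, 35.1 and 31.0 TPM in PBS and 25.7, 25.7 and 26.9 TPM in nanocapsule libraries. The 2 groups were well apart, with little spread among the nanocapsule libraries. Its log2 difference was -0.31 (SE 0.09, adjusted p = 0.365 in limma). Hnrnpu overlaps Cox20 on the opposite strand, a gene at a mean of 40.5 TPM, and the strandedness of the libraries is not stated. Srsf7 (chr17:80200080-80207307, minus strand) was at 26.1, 20.8 and 28.5 TPM in PBS and 19.6, 17.4 and 19.7 TPM in nanocapsule libraries. All nanocapsule libraries were below PBS, by a log2 difference of -0.38 (SE 0.13, adjusted p = 0.413), the lowest of the 30. Srsf11 was at 68.6, 73.8 and 79.9 TPM in PBS and 55.9, 49.0 and 68.2 TPM in nanocapsule libraries, with the highest nanocapsule library just below the lowest PBS library. Its log2 difference was -0.37 (SE 0.14, adjusted p = 0.443). Hnrnpc differed by -0.22 (adjusted p = 0.446) and Hnrnpl by -0.21 (adjusted p = 0.468), both without overlap. Srsf1 differed by -0.36 (SE 0.17, adjusted p = 0.501) and overlapped, since nanocapsule 3, at 85.5 TPM, lay within the PBS range of 74.3 to 99.7 TPM.

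The nanocapsule and anti-PD1 libraries are the contrast in which Hnrnph1 was singled out, so the counts here describe the families and are not read as support. The mean was lower in nanocapsule than in anti-PD1 libraries for 28 of 30 members, with Hnrnpul1 (0.09) and Hnrnpk (0.02) higher. The median log2 difference was -0.22, beside -0.17 over all tested genes, of which 70.8% were lower. With Hnrnph1 left aside the median was -0.20. Under median-of-ratios scaling 19 of 30 were lower, with a median of -0.05 beside -0.03 over all genes. The 10 Srsf genes were all lower, with a median of -0.28, though 8 of 10 and -0.11 under median-of-ratios scaling. The Hnrnp median was -0.19, and -0.02 under that scaling. Hnrnph1 was the only member called, beside 0.106% of all tested genes. At an unadjusted p under 0.05, 14 members were lower beside 21% of all tested genes, and 13 were lower with no overlap beside 24.6%. Under median-of-ratios scaling 4 were lower at that p, beside 11.9% of all tested genes, and 1 was higher, beside 2005 of 13248. Leaving out 1 library gave 7 lower without anti-PD1 3 (beside 11.8% of all tested genes) or nanocapsule 2 (11.0%). The most was 17 without nanocapsule 3 (beside 22.7%). Without the library of each group highest in Rag1 and Dntt, 26 members were lower. Of these, 1 had an unadjusted p under 0.05, beside 6.42% of all tested genes in that direction.

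Of the other 29 members the smallest adjusted p in this contrast was that of Srsf7. Srsf7 was at 26.2, 24.4 and 29.8 TPM in anti-PD1 libraries, all above the 3 nanocapsule libraries given above. Its log2 difference was -0.48 (SE 0.13, adjusted p = 0.0852 in limma). Srsf3 (chr17:29032628-29043373, plus strand) was at 86.0, 74.3 and 79.1 TPM in nanocapsule libraries, all below the anti-PD1 libraries, a log2 difference of -0.37 (SE 0.11, adjusted p = 0.0907). Srsf3 and Srsf7 are the pair of SR proteins best known as adapters of the export factor NXF1. Hnrnpr (chr4:136310942-136359447, plus strand), a relative of the RNA-binding protein SYNCRIP, was at 29.2, 24.1 and 31.7 TPM in anti-PD1 and 19.5, 19.5 and 22.9 TPM in nanocapsule libraries. These did not overlap, and the log2 difference was -0.44 (SE 0.13, adjusted p = 0.0914). Hnrnpa3 was at 211, 181 and 238 TPM in anti-PD1 and 161, 134 and 167 TPM in nanocapsule libraries, a log2 difference of -0.44 (SE 0.14, adjusted p = 0.103). Several processed pseudogenes resemble the hnRNP A genes, and reads could have been shared with them. Srsf2 differed by -0.31 (SE 0.10, adjusted p = 0.103) without overlap, and it overlaps Mettl23, at 22.3 TPM, and Mfsd11, at 18.7 TPM, on the opposite strand.

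**Figure D4:**
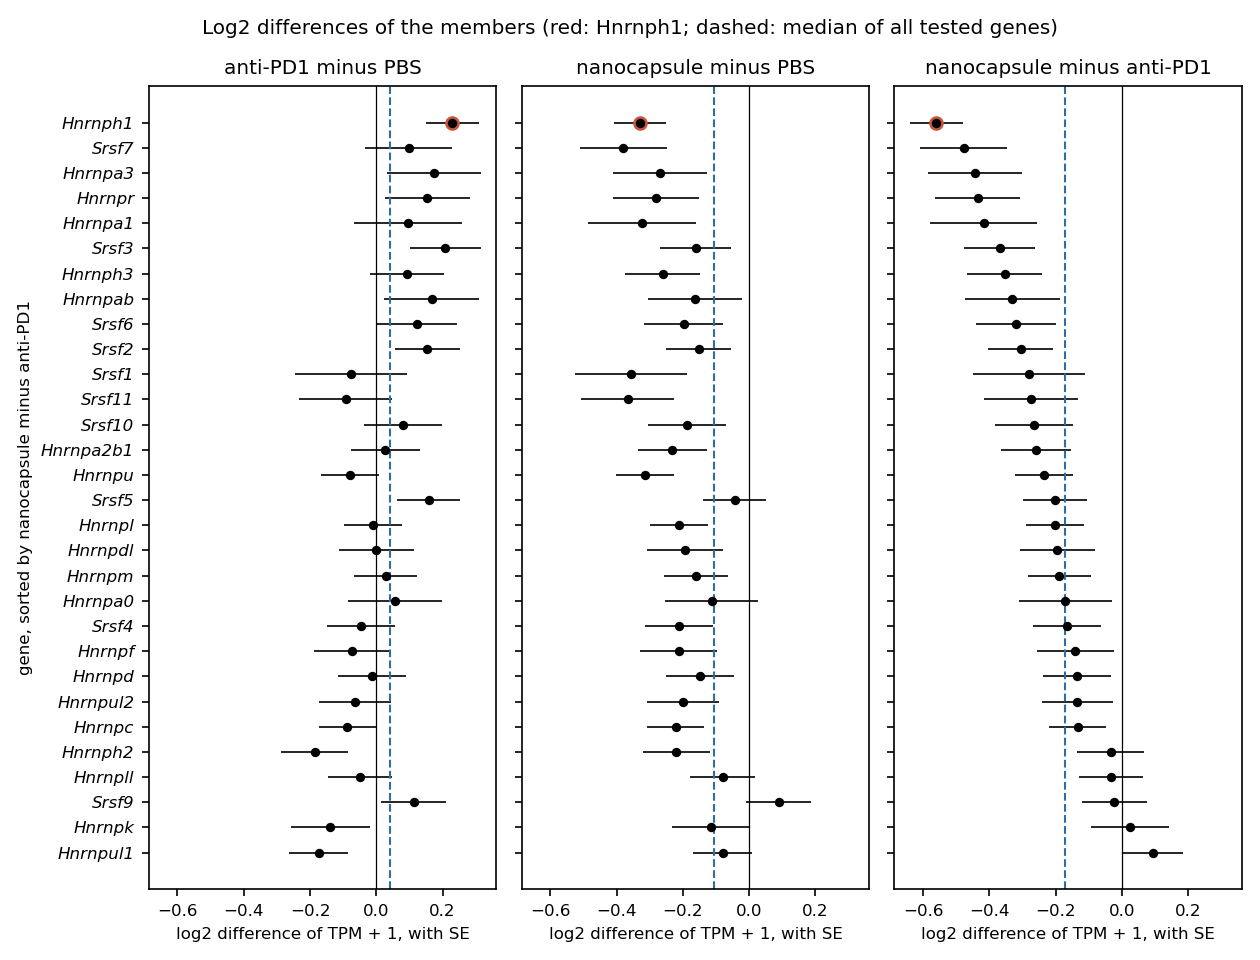
Log2 difference of TPM + 1 of each of the 30 members (points) with its SE (bars) in the 3 comparisons, sorted by nanocapsule minus anti-PD1, with dashed lines for the median of all tested genes (0.04, -0.11 and -0.17). Hnrnph1, ringed in red, is at 0.23, -0.33 and -0.56, and 29 and 28 of the points lie below 0 in the panels for nanocapsule minus PBS and nanocapsule minus anti-PD1.

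Each group enters 2 of the 3 comparisons, so a member's values are not independent across them. Set side by side, Srsf7 was at 0.10, -0.38 and -0.48 for anti-PD1 minus PBS, nanocapsule minus PBS and nanocapsule minus anti-PD1. Hnrnpu was at -0.08, -0.31 and -0.23. Srsf3 was at 0.21, -0.16 and -0.37. Hnrnpu was thus lowest in nanocapsule lungs, with anti-PD1 and PBS overlapping, whereas the mean of Srsf3 in PBS lay between a higher anti-PD1 and a lower nanocapsule mean. Srsf9 was at 0.11, 0.09 and -0.02, with the anti-PD1 and nanocapsule means both above PBS, though its value in the last comparison changed sign under 6 alternatives.

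The genes whose levels followed Hnrnph1 most closely over the 9 libraries were ranked by Pearson correlation of log2(TPM + 1), among 9039 genes whose mean TPM was 5 or more. They were Ankrd16 (r = 0.97), Lime1 (0.95), Snrnp70 (0.95), Trim28 (0.95), Ppan (0.95) and Araf (0.95). Snrnp70 encodes a protein of the U1 particle, which recognises the start of an intron, and Trim28 a corepressor of zinc-finger proteins. Among members the highest were Hnrnpr (0.90), Hnrnph3 (0.89), Srsf2 (0.85), Srsf7 (0.84) and Hnrnpa3 (0.81). The lowest were Hnrnpul1 (-0.18), Srsf9 (0.09), Hnrnpk (0.11) and Hnrnph2 (0.13). The median over the other 29 members was 0.69 beside 0.35 over the 9039 genes. These points share their library, its scaling and the group means, so the values describe likeness in these 9 libraries only.

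Some libraries held many of the extreme values. Nanocapsule 2 held the lowest level of 19 of the 30 members, beside 30.8% of all tested genes, and nanocapsule 1 that of 6. Anti-PD1 3 held the highest level of 14 members, beside 25.6% of all tested genes, and PBS 3 that of 7. The summed TPM of the Hnrnp genes was 2608 to 3016 in PBS, 2524 to 2969 in anti-PD1 and 2224 to 2614 in nanocapsule libraries. The groups overlapped, with nanocapsule 3 just above PBS 2 and above anti-PD1 2. Both families together held 0.361% to 0.411%, 0.357% to 0.416% and 0.310% to 0.363% of all TPM in the same order of groups. Anti-PD1 3, PBS 3 and nanocapsule 2 were also the libraries of their groups with the highest sum of Rag1 and Dntt, enzymes that join antigen receptor genes in immature lymphocytes. That sum was 75.1, 22.7 and 16.8 TPM in them.

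Other features of the libraries moved with the groups. The neutrophil genes S100a8 and S100a9 held 12.1% to 16.7% of all TPM in PBS, 10.3% to 11.95% in anti-PD1 and 15.5% to 17.5% in nanocapsule libraries, and mitochondrial transcripts 2.37% to 4.38%, 5.01% to 5.76% and 2.22% to 3.30%. Of 12 neutrophil markers, 12 were higher in nanocapsule than in anti-PD1 lungs. Their summed level was 174013 to 197317 beside 114108 to 130773 TPM, most of it from S100a8 and S100a9. The 9 T cell markers and the 8 B cell markers were all lower in nanocapsule than in both other groups, T cell markers summing to 209 to 250 TPM beside 267 to 546 in PBS and 242 to 676 in anti-PD1. The 10 endothelial markers summed to 94.5 to 176, 230 to 326 and 93.3 to 173 TPM in PBS, anti-PD1 and nanocapsule libraries. Of 9 heat shock genes, 9 were lower in nanocapsule than in PBS, at 854 to 1077 beside 1341 to 1781 TPM. The 8 proliferation genes summed to 126 to 193, 136 to 235 and 130 to 147 TPM. No listed marker was at 0 in all libraries. The alveolar type 2 genes of lung tissue summed to 449 to 1278, 1593 to 4005 and 779 to 4143 TPM in PBS, anti-PD1 and nanocapsule libraries. Every anti-PD1 library was thus above every PBS library in that sum, and the nanocapsule libraries spread widely. The part of these features in the members' differences was not tested.

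Other genes of RNA splicing were described by lists, with 0 genes called in any list and comparison (the all-gene shares called were 0.00755%, 0.00755% and 0.106%). Proteins of the U1, U2 and tri-snRNP particles, the core of the spliceosome, had a median log2 difference of 0.08 for anti-PD1 minus PBS, -0.18 for nanocapsule minus PBS and -0.29 for nanocapsule minus anti-PD1, with 34 of 35 lower in the last (26 under median-of-ratios scaling). At an unadjusted p under 0.05, 4 were higher in the first comparison and 10 and 15 lower in the others, beside 8.48%, 8.92% and 21% of all tested genes. Under median-of-ratios scaling 6 and 7 were lower at that p in the others, beside 5.59% and 11.9% of all tested genes. Snrnp70 was at 84.7 ± 6.17, 89.7 ± 3.06 and 62.4 ± 1.55 TPM (SD, n = 3) in PBS, anti-PD1 and nanocapsule libraries. Its log2 difference was -0.52 (SE 0.08, adjusted p = 0.0519 in limma) for nanocapsule minus anti-PD1, close to that of Hnrnph1. Snrpe, a ring protein of the snRNP core, was at 123 ± 8.43, 157 ± 14.5 and 120 ± 9.71 TPM, highest in anti-PD1 with the PBS and nanocapsule means close together (adjusted p = 0.211 for anti-PD1 minus PBS in limma).

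The next list held SR protein kinases, which phosphorylate SR proteins, and importers, which carry proteins into the nucleus. All 12 were lower in nanocapsule than in PBS, 8 at an unadjusted p under 0.05 beside 8.92% of all tested genes, with a median of -0.32. Under median-of-ratios scaling 10 of 12 were lower, 5 at that p beside 5.59% of all tested genes, with a median of -0.21. Srpk3 had the largest difference, 8.77 ± 3.59, 8.85 ± 3.22 and 2.68 ± 0.55 TPM in PBS, anti-PD1 and nanocapsule libraries, or -1.35 (SE 0.30, adjusted p = 0.338 in limma) and -1.38 (adjusted p = 0.0665) for nanocapsule against PBS and anti-PD1. Clk4, a kinase that releases SR proteins from speckles, was at 56.8 ± 3.98 TPM in PBS and 43.8 ± 0.17 TPM in nanocapsule libraries, -0.36 (SE 0.09, adjusted p = 0.338). Of 20 SR-related coactivators, 19 were lower in nanocapsule than in PBS, with a median of -0.28. At an unadjusted p under 0.05, 10 were lower, beside 8.92% of all tested genes. Under median-of-ratios scaling the median was -0.17 and 7 were lower at that p, beside 5.59% of all tested genes. The exception, Rsrp1, was higher at that p. Among the others Pnn, a desmosome-associated splicing protein, was at 15.2 ± 0.88, 15.7 ± 2.76 and 9.82 ± 0.66 TPM, with a log2 difference of -0.62 (SE 0.14, adjusted p = 0.0665) for nanocapsule minus anti-PD1.

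Of 14 hnRNP proteins with other gene names, 13 were lower in nanocapsule than in anti-PD1 (9 under median-of-ratios scaling), 7 at an unadjusted p under 0.05 beside 21% of all tested genes, with a median of -0.28. Under that scaling 1 was lower at that p, beside 11.9% of all tested genes, and 1 was higher, beside 2005 of 13248. They included Ewsr1, an RNA-binding protein, at -0.33 (adjusted p = 0.0821 in limma). Cirbp, an RNA-binding protein induced by cold, was higher in anti-PD1 than in PBS, 77.8 ± 6.21 beside 65.6 ± 2.14 TPM (0.24, adjusted p = 0.267). Among 21 tested regulators of alternative splicing the cold-induced Rbm3 likewise stood at 373 ± 9.65 beside 302 ± 38.3 TPM (0.31, adjusted p = 0.227). The list's medians were 0.02, -0.19 and -0.24, and Esrp1, Esrp2, Nova1 and Nova2 were below the level tested. The 15 factors of nonsense-mediated decay had medians of -0.03, -0.16 and -0.19. For anti-PD1 minus PBS, 6 of the 15 were higher and 9 lower. The exon junction proteins Magohb (0.55), Magoh (0.29) and Rbm8a (0.29) were the 3 with an unadjusted p under 0.05, all higher. Beside them stood 8.48% of all tested genes in that direction, and their adjusted p ran from 0.214 to 0.241 in limma.

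The last list held 16 transcripts known to stay in the nucleus or to keep introns, and its medians were -0.10, -0.30 and -0.22. In nanocapsule against PBS 15 of 16 were lower, 11 at an unadjusted p under 0.05, beside 8.92% of all tested genes, and Rsrp1, which is also in the coactivator list, was higher at that p. Under median-of-ratios scaling 15 were lower with 2 at that p, beside 5.59% of all tested genes. Malat1, an abundant nuclear long noncoding RNA, was at 212 ± 25.6 TPM in PBS and 150 ± 26.8 TPM in anti-PD1 libraries, -0.51 (SE 0.17, adjusted p = 0.228 in limma). Ccnl1, a cyclin found in speckles, was at 98.8 ± 10.6 TPM in PBS and 71.2 ± 7.04 TPM in nanocapsule libraries, -0.47 (SE 0.10, adjusted p = 0.338). For nanocapsule minus anti-PD1 the medians of the 7 lists lay between -0.29 and -0.19, and between -0.12 and -0.02 under median-of-ratios scaling, beside -0.17 and -0.03 over all tested genes. After quantile normalization the decay factors stood at 0.00, and the other 6 lists were below 0.

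**Figure D5:**
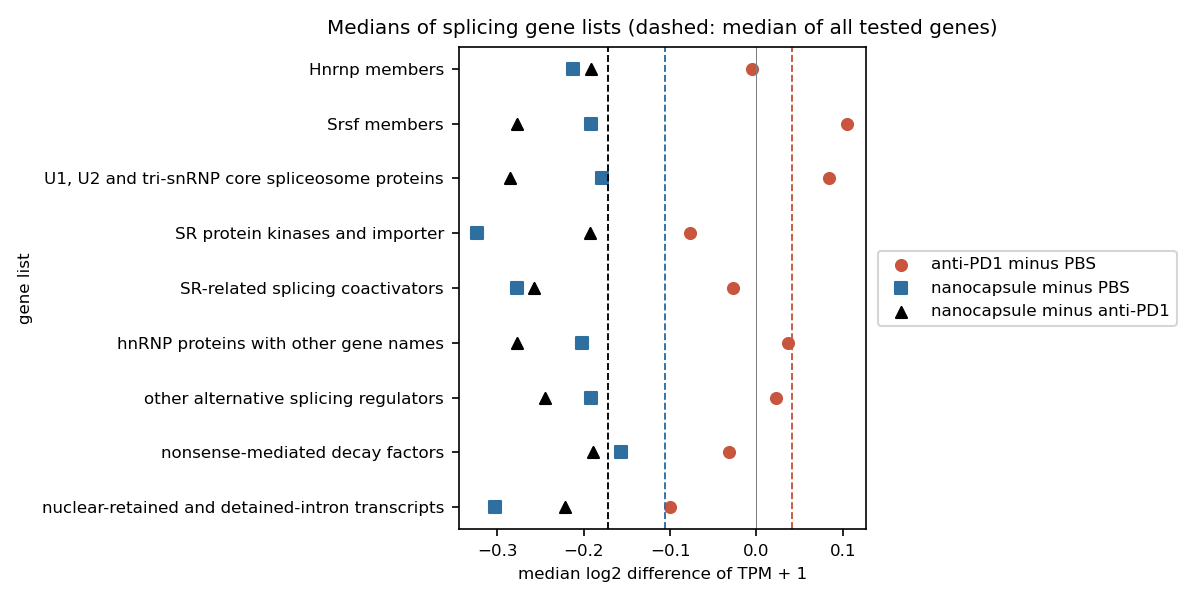
Median log2 difference of TPM + 1 for the Hnrnp and Srsf genes and 7 lists of other splicing genes (rows) in the 3 comparisons (symbols), with dashed lines for the median of all tested genes. The squares and triangles lie below 0 in every row, as do the medians of all tested genes at -0.11 and -0.17.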

How the data were processed

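Gene levels were deposited by the authors as 1 table of TPM for 45706 genes in 9 libraries, 3 per group. The table's name points to salmon as the quantifier. The submitters' processing notes list DESeq2 and GRCm38 without a role or version, and the aligner settings, annotation and strandedness are not given in the sources used here. Because TPM holds no read totals, depth is unknown and no count test was run.

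Genes needed 1 TPM or more in 3 or more libraries (13248 genes), and their log2(TPM + 1) was fitted with limma 3.58.1 (R 4.3.3), with an intensity trend and 1 mean per group. All 9 libraries shared 1 estimate of the spread (6 residual degrees of freedom). Two-sided tests were made, with Benjamini-Hochberg adjustment over all tested genes, and an adjusted p under 0.05 counted as a call. Log2 differences include the pseudocount of 1 TPM, which understates the change of low genes. An exact permutation test of 3 against 3 libraries cannot give a p under 0.1, so none was used. The fit was tested on simulated data with planted changes larger than any member's difference here, so it was not tested for differences of this size.

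The members, the lists of other splicing genes and the cell markers were chosen with earlier results of these data known. Named members were Hnrnph1, its H/F relatives, the 6 smallest p and the 3 highest and lowest differences of each comparison, and the 3 highest and lowest levels; from each list, the 3 genes with the smallest p were candidates. Gene positions and transcript types came from GENCODE M21 and promoters from RefSeq, both of GRCm38.p6. Alternatives changed the pseudocount (0.1, 0.5), the filter, the scaling, the variance model, the libraries and the replicate block. Leaving out the library of each group highest in Rag1 and Dntt was chosen after seeing the data.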

Additional observations from a re-analysis of the deposited data

How the results depend on the processing

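Of the alternative values for the counts, medians and Hnrnph1 differences, 213 stayed on their side of the threshold or within the spread of replicates. A further 16 moved and 11 were weaker. A value could stay within that spread and still change sign. The members' median for anti-PD1 minus PBS ran from -0.03 to 0.09 with 1 library left out, and none of these values was counted as changed. Hnrnph1 for nanocapsule minus anti-PD1 lost its call with no filter (-0.56), without the trend (-0.56), under median-of-ratios scaling (-0.39) and without the libraries highest in Rag1 and Dntt (-0.50). Leaving out 1 library gave -0.61 to -0.51, and the call was kept only without PBS 2 or PBS 3. The cause was not tested. The members called in this contrast numbered 0 under those 4 alternatives, 0 to 3 when 1 library was left out (3 without PBS 2) and 6 with the replicate block, where calls over all genes went from 14 to 1095. Deviations of same-numbered libraries correlated from -0.18 to 0.28, and those of differently numbered libraries from -0.26 to 0.22. Between PBS and anti-PD1 the same-numbered values were 0.06, 0.28 and 0.28, all above the others, at -0.26 to 0.01. The labels do not tie a number to an animal, so the numbers were not taken to pair the libraries. Whether same-numbered libraries share an effect was not tested. Median-of-ratios scaling moved the members' median to -0.0901 for nanocapsule minus PBS and to -0.0497 for nanocapsule minus anti-PD1, and leaving out the Rag1 and Dntt libraries moved the nanocapsule minus PBS median to -0.0784.

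Small log2 differences changed sign. Under median-of-ratios scaling 3 of the 30 members turned for anti-PD1 minus PBS, 5 for nanocapsule minus PBS and 9 for nanocapsule minus anti-PD1. Values here and below are for members named in a comparison by the rule. They included, for nanocapsule minus anti-PD1, Hnrnpf (0.0305), Hnrnph2 (0.136) and Srsf9 (0.147), and, for nanocapsule minus PBS, Hnrnpul1 (0.0357) and Srsf5 (0.0726). After quantile normalization 2, 1 and 4 members turned in the same order, and among them Hnrnph2 (0.0170), Hnrnpk (-0.0297) and Srsf9 (0.00803) turned for nanocapsule minus anti-PD1, and so did Srsf9 (0.00623) after rescaling without mitochondrial, haemoglobin, S100a8 and S100a9 genes. Without the Rag1 and Dntt libraries 3 members turned for nanocapsule minus PBS, among them Srsf5 (0.0303), and 2 for nanocapsule minus anti-PD1, among them Srsf9 (0.0141). Leaving out 1 library turned up to 7 members for anti-PD1 minus PBS (without PBS 2), 1 for nanocapsule minus PBS and 3 for nanocapsule minus anti-PD1 (without anti-PD1 2). It gave Hnrnpf -0.134 to 0.0259 for anti-PD1 minus PBS (turned without PBS 3) and Srsf5 -0.127 to 0.0427 for nanocapsule minus PBS (turned without nanocapsule 2). For nanocapsule minus anti-PD1 it gave Hnrnph2 -0.116 to 0.0181 (turned without anti-PD1 2 or nanocapsule 1), Hnrnpk -0.0982 to 0.0867 (turned without anti-PD1 2 or nanocapsule 3) and Srsf9 -0.0631 to 0.0385 (turned without anti-PD1 3 or nanocapsule 3). Calls over all genes in that contrast ran from 0 (without anti-PD1 1, anti-PD1 2 or nanocapsule 2) to 1095, with 962 without PBS 2 and 188 without PBS 3, and with 9 higher and 5 lower as reported and 19 and 2 under median-of-ratios scaling.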
